A study of Arabidopsis thaliana with 12 samples.

Results

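Tetrapyrrole synthesis from glutamate to chlorophyll was followed through 31 nuclear genes of *Arabidopsis thaliana*, out of 40215 gene models in the table. The members were taken from a fixed list of gene identifiers, with 12 genes of the common trunk, 4 of the heme and bilin branch, 13 of the chlorophyll branch and 2 regulators of the first step. Total RNA depleted of rRNA was sequenced from 4-day-old seedlings in 12 libraries, 3 each of *gun1W*, *gun1M*, *gun1G* and Col-0. The labels give the tissue as cotyledon, whereas the study's text speaks of seedlings. *gun1W*, *gun1M* and *gun1G* are seedlings with white, marbled and green cotyledons of the same mutant, *gun1-102*, a T-DNA insertion line in the Col-0 background that lacks a functional GUN1, a plastid protein with a role in signalling to the nucleus. All seedlings, Col-0 included, were stratified for 2 days and grown on diluted MS medium with 1% sucrose at 22 °C in long days (16 h light, 8 h dark, 100 µmol photons per square metre and second), without an inhibitor. The 3 mutant groups were sorted by the colour of the cotyledons, so the colour and any cell state that goes with it cannot be told apart, and only 1 allele was sequenced. The labels do not say whether libraries of a group came from separate plates, so the p-values cover only how far these libraries scatter.

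All tetrapyrroles of a plant begin in the plastid with glutamate bound to its tRNA. Glutamyl-tRNA reductase, the step at which the supply is mainly controlled, and an aminotransferase turn it into aminolevulinic acid, and the trunk enzymes join and oxidise this to protoporphyrin IX. Ferrochelatase inserts iron and opens the way to heme and to the bilin chromophore of phytochrome, and Mg-chelatase inserts magnesium and opens the way to chlorophyll. Chlorophyll precursors are phototoxic, and protochlorophyllide reduction by the POR enzymes needs light, so seedlings that turn green adjust this step to light and development. Several mutants of the *gun* class carry lesions in this pathway, in *HO1*, *HY2*, *CHLH* and *GUN4*.

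Values are given as scaled TPM, the TPM of a gene (transcripts per 1000000) summed over its transcripts and multiplied by 1 factor per library that made the median nuclear gene equal in all libraries. The factors were 0.538 to 0.691 in *gun1W*, 0.908 to 1.16 in *gun1M*, 1.16 to 1.27 in *gun1G* and 1.21 to 1.34 in Col-0, while plastid transcripts made up 9.29 to 12.5%, 27.7 to 34.6%, 38.4 to 41.5% and 34.5 to 37.8% of the deposited TPM. Without the factor the median nuclear gene lay 1.04 higher on the log2 scale in *gun1W* than in Col-0, 0.25 higher in *gun1M*, 0.04 higher in *gun1G*, and the differences below are relative to that shift. A single nuclear gene model, AT3G06365, took 4.02 to 19.5% of the TPM in *gun1W*, 0.745 to 10.5% in *gun1M*, 0.219 to 4.70% in *gun1G* and 5.71 to 8.46% in Col-0. Log2 fold changes and their standard errors are on the scale of log2(scaled TPM + 1), which understates changes of low genes, and a gene was called where limma gave an adjusted p under 0.05 over 18373 tested gene models. Genes entered the test with 3 or more libraries at a TPM of 1 or higher, and 30 of the 31 members passed, with *PORA* below it. In bulk tissue, fewer cells of a type and less RNA per cell cannot be told apart.

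The mutated gene, *GUN1* (AT2G31400, TAIR10 chr2:13386954-13390854, minus strand), had 39.3, 33.3 and 25.7 scaled TPM in *gun1W*, 25.7, 24.5 and 36.1 in *gun1M*, 20.4, 26.9 and 29.7 in *gun1G*, against 46.1, 44.0 and 46.4 in Col-0. Every mutant library lay below every Col-0 library. The log2 fold change was −0.48 (adjusted p = 0.0898) in *gun1W*, −0.67 (adjusted p = 0.0260) in *gun1M*, −0.82 (adjusted p = 0.0263) in *gun1G*, and the calls in *gun1M* and *gun1G* were lost without any 1 of several libraries. A sum over the whole gene does not show whether the exons behind the insertion were transcribed. The tissue label was checked against 8 genes of green cotyledons, whose summed level was 29373 to 32658 scaled TPM in *gun1W*, 42840 to 58632 in *gun1M*, 54821 to 63498 in *gun1G* and 43860 to 47249 in Col-0, with no marker at 0 in all libraries. In *gun1W* 3 of these 8 genes (*RBCS1A*, *CAB1* and *CAB3*) fell and 1 (*RBCS1B*) rose against Col-0. Of all tested gene models, 12.5% fell and 15.1% rose in that comparison. Root markers were present in every library, with *CASP1*, a gene of the root endodermis, at 39.8 to 71.6 scaled TPM, which goes against a tissue of cotyledons alone. The 6 root markers summed to 91.2 to 109 scaled TPM in *gun1W*, 67.3 to 80.4 in *gun1M*, 70.3 to 82.3 in *gun1G* and 80.2 to 106 in Col-0. Shoot meristem markers summed to 2.20 to 6.54 over the 12 libraries, and seed storage genes summed to 37.2 in 1 *gun1W* library and to 1.51 to 11.1 in the other 11. What these cell markers contribute to the differences below was not tested.

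Promoters are shown first for the genes on which the comparisons turn, both glutamyl-tRNA reductase genes and the 3 *POR* genes, whose members differed over the mutant groups. Each sequence is the 250 bases before the annotated gene start on the strand of the gene, 5′ to 3′, from the RefSeq TAIR10.1 genome, with the letters of a searched motif in capitals. The window of *HEMA1* is chr1:21626403-21626652 (minus strand), that of *HEMA2* chr1:3239555-3239804 (minus strand), that of *PORA* chr5:21992815-21993064 (minus strand), that of *PORB* chr4:13725296-13725545 (plus strand) and that of *PORC* chr1:907273-907522 (plus strand).
HEMA1: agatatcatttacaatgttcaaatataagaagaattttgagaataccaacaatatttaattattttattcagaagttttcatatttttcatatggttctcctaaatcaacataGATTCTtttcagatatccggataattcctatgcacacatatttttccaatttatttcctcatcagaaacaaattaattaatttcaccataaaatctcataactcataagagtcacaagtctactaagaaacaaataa
HEMA2: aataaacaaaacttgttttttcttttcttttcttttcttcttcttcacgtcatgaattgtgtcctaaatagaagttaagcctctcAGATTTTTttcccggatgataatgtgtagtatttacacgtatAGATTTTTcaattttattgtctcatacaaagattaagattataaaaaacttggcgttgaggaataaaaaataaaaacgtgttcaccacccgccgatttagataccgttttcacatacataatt
PORA: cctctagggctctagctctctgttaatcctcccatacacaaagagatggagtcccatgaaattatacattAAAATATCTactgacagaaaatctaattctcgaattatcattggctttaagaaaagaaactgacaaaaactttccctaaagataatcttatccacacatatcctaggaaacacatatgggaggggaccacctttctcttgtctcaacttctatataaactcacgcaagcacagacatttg
PORB: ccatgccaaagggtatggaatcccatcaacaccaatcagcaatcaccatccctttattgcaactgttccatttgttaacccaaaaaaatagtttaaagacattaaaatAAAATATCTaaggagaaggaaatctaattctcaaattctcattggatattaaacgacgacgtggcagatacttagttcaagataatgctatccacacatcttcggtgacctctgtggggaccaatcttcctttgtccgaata
PORC: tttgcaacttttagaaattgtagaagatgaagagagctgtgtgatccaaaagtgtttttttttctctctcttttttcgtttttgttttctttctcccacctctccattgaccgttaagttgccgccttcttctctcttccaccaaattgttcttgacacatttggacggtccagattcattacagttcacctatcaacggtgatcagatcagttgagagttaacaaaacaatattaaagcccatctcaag
The capitals mark a GLK site (GATTCT) 137 bases before the start of *HEMA1*, a CCA1 site (AAAAATCT, read here as AGATTTTT on the other strand) 165 and 123 bases before *HEMA2*, and an evening element (AAAATATCT) 180 bases before *PORA* and 142 bases before *PORB*. The window of *PORC* held none of the letters searched.

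Short motifs were searched on both strands in the same window of all 31 members and of 27443 protein-coding genes. The G-box CACGTG, which PIF and HY5 factors bind, was in 5 members (*HEMD*, *FC2*, *HY2*, *CHL27* and *CAO*) and in 6.49% of all promoters. The GLK site was in 6 members (*HEMA1*, *HEME1*, *HEMF1*, *CHLH*, *GUN4* and *DVR*) and in 15.9% of promoters. The CCA1 site was in 5 members (*HEMA2*, *HY2*, *GUN4*, *CHL27* and *FLU*) and in 6.69% of promoters, and the evening element was in 2 members and in 2.36% of promoters. The FHY3 site CACGCGC was in no member and in 1.057% of promoters. *PORA* and *PORB*, which share the evening element, were both low in *gun1W* and *gun1M*, with *PORA* below the filter. Whether the element bears on their levels was not tested. All motif hits are matches of letters, not measured binding.

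In *gun1W*, 6 members rose against Col-0 (*HEMA1*, *HEMA2*, *HEME1*, *HEME2*, *CHLG* and *GBP*) and 2 fell (*PORB* and *HO1*), beside 15.1% of all tested gene models higher and 12.5% lower. In *gun1M*, 8 rose (*HEMA1*, *HEMA2*, *HEME1*, *HEME2*, *PPOX1*, *CHLH*, *PORC* and *CHLG*) and 1 fell (*PORB*), beside 15.4% higher and 13.6% lower. Between *gun1G* and Col-0, 5 rose (*HEMA1*, *PPOX1*, *CHLH*, *PORC* and *CHLG*) and 0 fell, beside 5.75% higher and 3.62% lower. When single libraries were left out, the count of higher members ranged from 1 to 7, and the shares of all gene models in those fits are not given here. The 0 lower calls in *gun1G* stand beside 10 members with an unadjusted p under 0.05 in either direction, where 26.7% of all tested gene models had one. The median log2 fold change over the tested members was 0.27 in *gun1W*, 0.17 in *gun1M*, 0.15 in *gun1G*, beside medians of all tested gene models between −0.01 and 0.00.

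**Figure D1:**
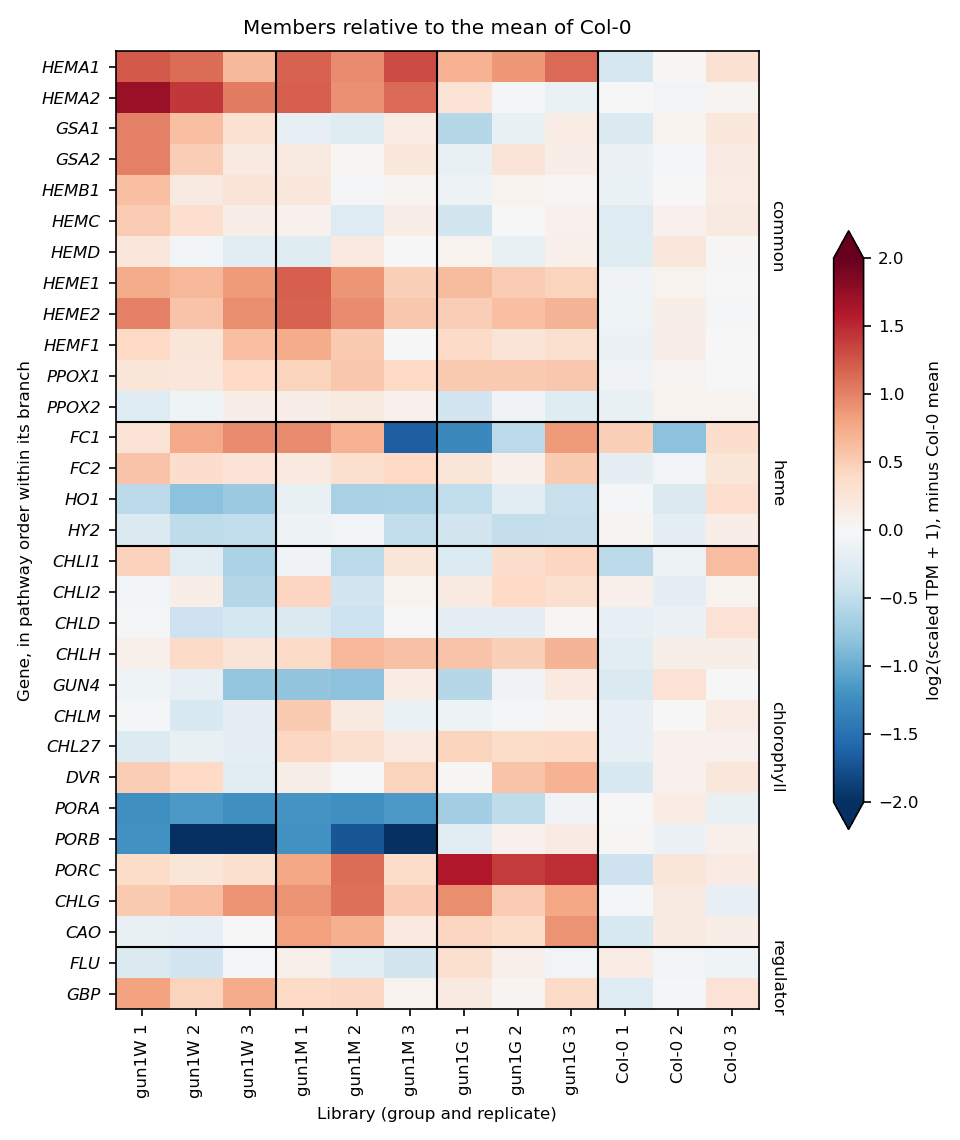
Log2(scaled TPM + 1) of each member in each library, less its mean over the Col-0 libraries, with members in rows by branch and libraries in columns by group (*gun1W*, *gun1M*, *gun1G*, Col-0). *HEMA1* is above the Col-0 mean in all 9 mutant libraries, and *PORB* is below it in the 6 libraries of *gun1W* and *gun1M*.

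The first enzyme, glutamyl-tRNA reductase, is encoded by *HEMA1*, the main gene of green tissue, and *HEMA2*, which is known from roots and other tissue that is not green. *HEMA1* (AT1G58290, chr1:21623700-21626402) had 74.4, 68.7 and 49.4 scaled TPM in *gun1W*, 72.4, 60.9 and 78.8 in *gun1M*, 51.5, 58.0 and 69.9 in *gun1G*, against 24.7, 31.8 and 38.9 in Col-0. All 9 mutant libraries lay above all 3 Col-0 libraries, and the mutant groups overlapped each other. Log2 fold changes were 0.99 ± 0.20 (SE, adjusted p = 0.00463) in *gun1W*, 1.14 (adjusted p = 0.00234) in *gun1M*, 0.90 (adjusted p = 0.0207) in *gun1G*. The call in *gun1G* was lost without *gun1G* replicate 3 (0.79), Col-0 replicate 1 (0.74) or Col-0 replicate 2 (0.91). Between *gun1W* and *gun1G* *HEMA1* differed by 0.09 (adjusted p = 0.817).

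*HEMA2* (AT1G09940, chr1:3236908-3239554) was high in the white and marbled groups only. Its scaled TPM was 16.1, 12.8 and 9.55 in *gun1W*, 10.9, 8.80 and 10.4 in *gun1M*, 5.30, 4.09 and 3.74 in *gun1G*, against 4.20, 4.01 and 4.39 in Col-0. The white and marbled libraries lay above all green ones of either genotype, and *gun1G* and Col-0 overlapped. *gun1W* and *gun1M* also overlapped, with a log2 difference of 0.30 (limma, adjusted p = 0.601). Since *HEMA2* is known from roots, the summed root markers stand beside it. Their sum was higher in *gun1W* than in *gun1G* without overlap (91.2 to 109 and 70.3 to 82.3 scaled TPM), while *gun1M* (67.3 to 80.4) overlapped *gun1G*. *CASP1* made up most of this sum, with averages of 64.3 in *gun1W* and 47.3 in *gun1G*. *SHR* (5.70 and 6.93) and *SMB* (0.279 and 0.330) averaged lower in *gun1W* than in *gun1G*. Of 5 root markers tested by limma, 0 were called between *gun1W* and *gun1G*, with 2 at an unadjusted p under 0.05. In Col-0, whose *HEMA2* overlapped that of *gun1G*, the root markers summed to 80.2 to 106 and overlapped *gun1W*. Their part in the difference was not tested. *HEMA2* rose by 1.38 ± 0.18 on the log2 scale in *gun1W* (adjusted p = 0.000325) and by 1.08 in *gun1M* (adjusted p = 0.00171), and had a log2 fold change of 0.04 in *gun1G* (adjusted p = 0.920). Tested directly, it was higher in *gun1W* than in *gun1G* by 1.35 (adjusted p = 0.000815) and in *gun1M* than in *gun1G* by 1.04 (adjusted p = 0.0113), the second of which was lost without *gun1G* replicate 2 (1.01) or replicate 3 (0.96) and in a fit of the 6 libraries alone.

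**Figure D2:**
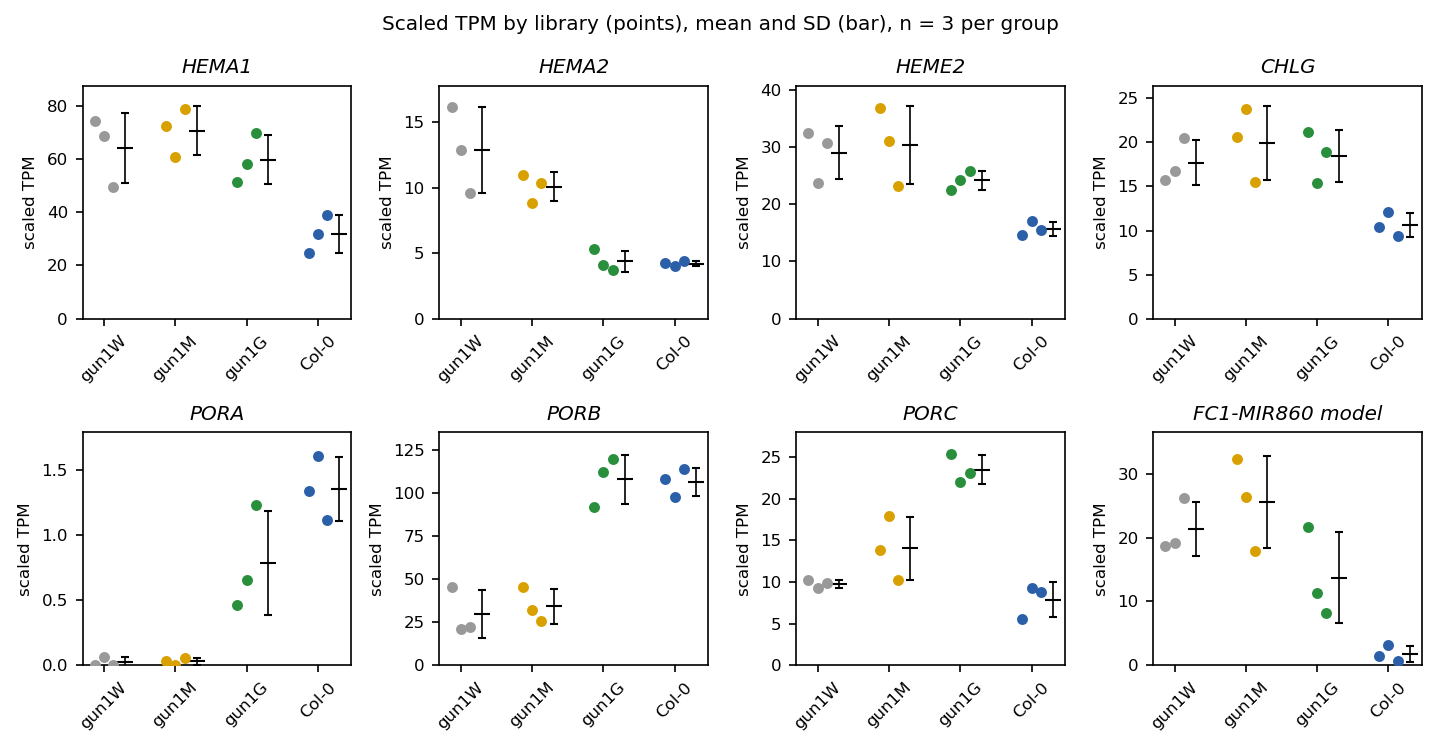
Scaled TPM of 7 members and of the joined *FC1*-*MIR860* model in each of the 12 libraries, 1 point per library with the group mean ± SD beside the points, groups from left to right *gun1W*, *gun1M*, *gun1G* and Col-0. *HEMA2* and *PORB* separate the pale from the green libraries in opposite directions, *HEMA1* separates mutant from Col-0, and *PORC* is highest in *gun1G* (22.1 to 25.4).

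The aminotransferase genes, *GSA1* and *GSA2*, make aminolevulinic acid. *GSA1* had 31.9, 23.8 and 19.2 scaled TPM in *gun1W*, 13.6, 12.9 and 17.1 in *gun1M*, 10.1, 13.8 and 17.3 in *gun1G*, against 12.5, 16.3 and 17.98 in Col-0. The *gun1W* libraries lay above all others. Its log2 fold change against Col-0 was 0.64 in *gun1W* (adjusted p = 0.0566), and it was higher in *gun1W* than in *gun1G* by 0.82 (adjusted p = 0.0347). That last call was lost without any 1 of *gun1W* replicates 1 and 2 and *gun1G* replicates 1 and 2, and was 0.30 when the AT3G06365 share was a covariate. *GSA2* averaged 24.4 ± 7.56 scaled TPM in *gun1W*, 17.5 ± 1.21 in *gun1M*, 16.7 ± 2.56 in *gun1G*, and 15.7 ± 1.78 in Col-0 (SD, n = 3 each), with a log2 fold change of 0.56 in *gun1W* (adjusted p = 0.0534).

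The middle of the trunk builds the ring. *HEMB1* (aminolevulinate dehydratase) averaged 85.3 ± 14.1 scaled TPM in *gun1W* and 66.5 ± 6.87 in Col-0 (SD, n = 3 each), and *HEMC* (porphobilinogen deaminase) 55.9 ± 7.29 and 44.6 ± 7.04, with log2 fold changes of 0.35 (adjusted p = 0.0986) and 0.33 (adjusted p = 0.197). *HEMD* (uroporphyrinogen synthase) averaged 6.49, 6.49 and 6.53 in *gun1W*, *gun1M* and *gun1G*, and 6.55 in Col-0, and its log2 fold changes were −0.01, −0.01 and 0.00. None of these 3 genes passed the test in any mutant group.

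Uroporphyrinogen decarboxylase, the next step, rose in the pale groups through both of its genes. *HEME1* (AT3G14930, chr3:5020461-5023146) had 23.7, 22.5 and 25.6 scaled TPM in *gun1W*, 32.7, 26.4 and 19.5 in *gun1M*, 21.9, 20.1 and 19.2 in *gun1G*, against 13.01, 14.5 and 13.9 in Col-0. *HEME2* (AT2G40490, chr2:16912805-16915202) had 32.5, 23.8 and 30.8 in *gun1W*, 36.9, 31.03 and 23.2 in *gun1M*, 22.5, 24.3 and 25.8 in *gun1G*, against 14.7, 17.1 and 15.4 in Col-0. Both genes lay above Col-0 in all 9 mutant libraries. *HEME1* rose by 0.75 ± 0.17 on the log2 scale in *gun1W* (adjusted p = 0.00676) and 0.85 in *gun1M* (adjusted p = 0.00374), and *HEME2* by 0.84 ± 0.18 (adjusted p = 0.00514) and 0.89 (adjusted p = 0.00407). In *gun1G* the log2 fold changes were 0.53 (adjusted p = 0.0671) and 0.59 (adjusted p = 0.0567), and neither gene differed by the test between *gun1W* and *gun1G* (0.22 and 0.24, adjusted p = 0.429 and 0.400).

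The last trunk steps oxidise the ring. *HEMF1* (coproporphyrinogen oxidase) had log2 fold changes of 0.41, 0.43 and 0.32 in *gun1W*, *gun1M* and *gun1G*, none past the test. *PPOX1* (protoporphyrinogen oxidase) had 30.9, 30.4 and 34.3 scaled TPM in *gun1W*, 35.5, 37.9 and 34.5 in *gun1M*, 37.6, 37.7 and 38.1 in *gun1G*, against 24.6, 27.0 and 26.0 in Col-0. Every mutant library was above Col-0, and *gun1W* was the lowest of the mutant groups. It rose by 0.46 in *gun1M* (adjusted p = 0.0107) and 0.53 in *gun1G* (adjusted p = 0.0156), and the call in *gun1G* was lost without *gun1G* replicate 1 (0.54) or Col-0 replicate 1 (0.50). Its log2 fold change was 0.29 in *gun1W* (adjusted p = 0.0750). *PPOX2* averaged 5.82, 6.79 and 5.09 scaled TPM in the same mutant groups and 6.13 in Col-0, with no call.

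**Figure D3:**
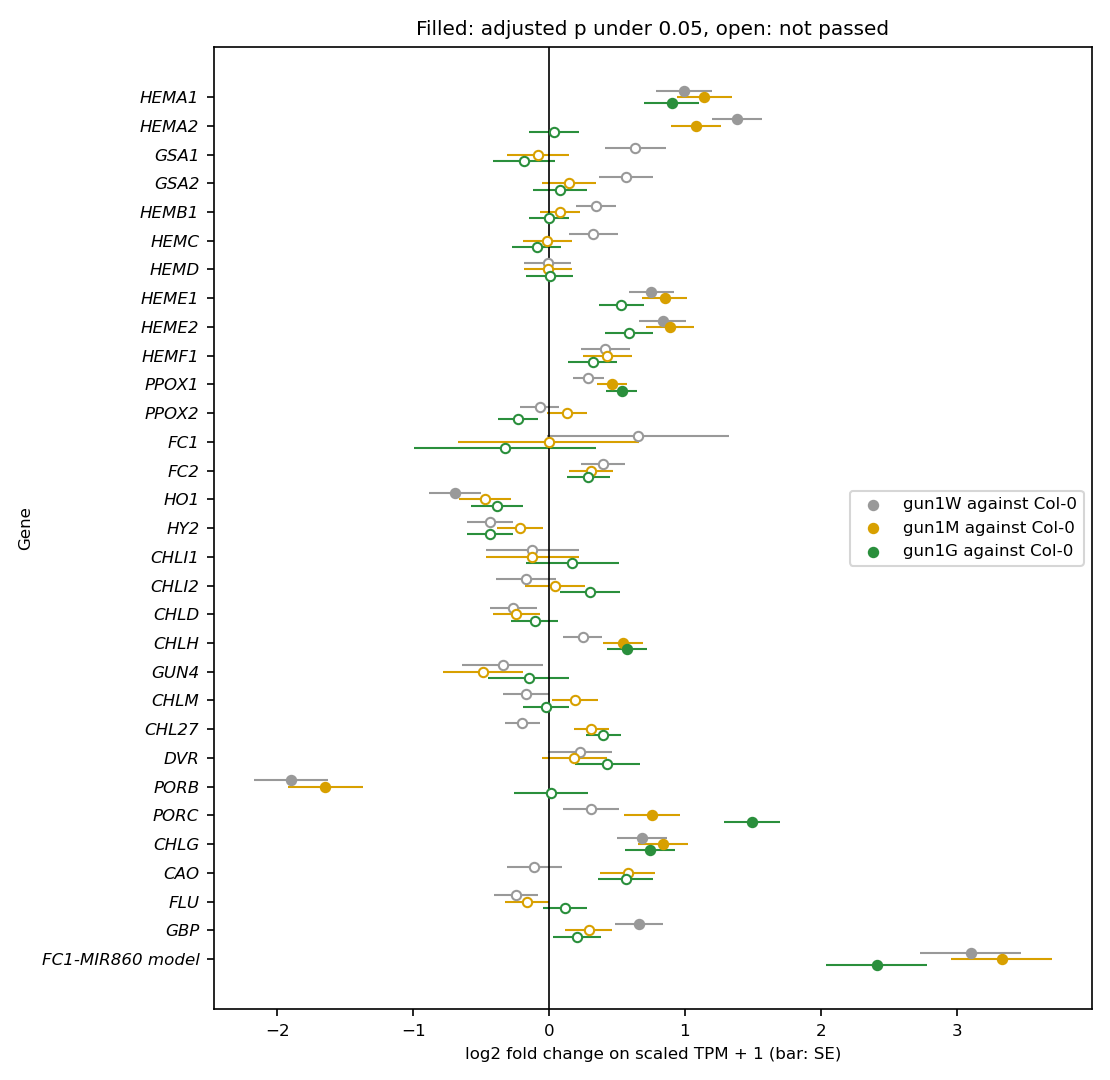
Log2 fold change of 30 members and the joined *FC1*-*MIR860* model in *gun1W*, *gun1M* and *gun1G* against Col-0, with bars of ± 1 SE from the fit over 12 libraries (3 per group) and filled points for an adjusted p under 0.05. *HEMA1*, *CHLG* and the joined model are filled above 0 in all 3 groups, *PORB* lies at −1.90 and −1.65 in *gun1W* and *gun1M* and at 0.01 in *gun1G*, and the joined model lies at 2.41 to 3.33.

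Ferrochelatase takes protoporphyrin to heme. *FC2* (AT2G30390, chr2:12950954-12954148), the main gene of green tissue, averaged 17.0 ± 1.95 scaled TPM in *gun1W*, 15.9 ± 1.14 in *gun1M*, 15.8 ± 2.58 in *gun1G*, and 12.7 ± 2.20 in Col-0 (SD, n = 3 each), with log2 fold changes of 0.40 (adjusted p = 0.0861), 0.31 and 0.29. *FC1* (AT5G26030, chr5:9096451-9099185, plus strand) under its own identifier was low and uneven, with 2.80, 4.27 and 5.01 scaled TPM in *gun1W*, 5.01, 4.09 and 0 in *gun1M*, 0.284, 1.16 and 4.65 in *gun1G*, against 3.34, 0.779 and 2.99 in Col-0. All groups overlapped, and the 0 is given as the table lists it.

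At this locus the table also lists a model that joins *FC1* with *MIR860*, a microRNA gene (AT5G26038, chr5:9098791-9098916, plus strand) that overlaps exons of both RefSeq mRNAs of *FC1* on the same strand. An exon of 1 of these 2 mRNAs contains the whole of *MIR860*. The mature microRNA at chr5:9098876-9098896 is printed from RefSeq with TAIR10.1 coordinates, and capitals mark its seed, bases 2 to 8.
MIR860: tCAATAGAttggactatgtat
The joined model had 18.7, 19.1 and 26.3 scaled TPM in *gun1W*, 32.4, 26.3 and 17.9 in *gun1M*, 21.7, 11.3 and 8.15 in *gun1G*, against 1.46, 3.16 and 0.663 in Col-0. All 9 mutant libraries lay above all 3 Col-0 libraries, with *gun1G* partly below the pale groups. The joined model averaged 21.4 ± 4.27 scaled TPM beside 4.03 ± 1.13 for *FC1* alone in *gun1W*, 25.6 ± 7.27 beside 3.03 ± 2.67 in *gun1M*, and 13.7 ± 7.10 beside 2.03 ± 2.31 in *gun1G*, but 1.76 ± 1.28 beside 2.37 ± 1.39 in Col-0 (SD, n = 3 each), where *FC1* alone was the higher in 2 of 3 libraries. The log2 fold change of the joined model was 3.10 ± 0.37 in *gun1W* (adjusted p = 0.000174), 3.33 in *gun1M* (adjusted p = 0.000156) and 2.41 in *gun1G* (adjusted p = 0.00367), and 0.69 between *gun1W* and *gun1G* (adjusted p = 0.2501). Added to *FC1*, the sum was 21.5, 23.4 and 31.3 scaled TPM in *gun1W*, 37.4, 30.4 and 17.9 in *gun1M*, 22.0, 12.5 and 12.8 in *gun1G*, against 4.80, 3.94 and 3.65 in Col-0, and rose by 2.35, 2.47 and 1.67 on the log2 scale (adjusted p = 0.000143, 0.000148 and 0.00512). Reads of *FC1* and of the microRNA precursor cannot be told apart on 1 strand, and total RNA libraries of this kind do not measure the mature microRNA.

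Heme oxygenase, *HO1*, and phytochromobilin synthase, *HY2*, make the phytochrome chromophore. *HO1* (AT2G26670, chr2:11341548-11343693) had 21.7, 17.5 and 18.5 scaled TPM in *gun1W*, 28.5, 19.8 and 20.1 in *gun1M*, 22.2, 27.2 and 22.9 in *gun1G*, against 30.6, 25.5 and 40.2 in Col-0. The *gun1W* libraries lay below all Col-0 libraries, and the other mutant groups overlapped Col-0. It fell by 0.69 on the log2 scale in *gun1W* (adjusted p = 0.0194), a call lost without *gun1W* replicate 2 (−0.63), *gun1W* replicate 3 (−0.67) or Col-0 replicate 3 (−0.52), and at 0.31 in the deposited TPM the direction turned. The log2 fold changes in *gun1M* and *gun1G* were −0.47 and −0.38. *HY2* was at 1.13 ± 0.183 scaled TPM in *gun1W*, 1.50 ± 0.392 in *gun1M*, 1.13 ± 0.0938 in *gun1G*, and at 1.89 ± 0.325 in Col-0 (SD, n = 3 each), with no call (−0.43 in *gun1W*, adjusted p = 0.0722).

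Mg-chelatase begins the chlorophyll branch with the subunits CHLI, CHLD and CHLH and the activator GUN4. *CHLH* (AT5G13630, chr5:4387307-4392429) had 125, 153 and 139 scaled TPM in *gun1W*, 152, 185 and 176 in *gun1M*, 174, 162 and 187 in *gun1G*, against 99.1, 126 and 127 in Col-0. *gun1M* and *gun1G* lay above Col-0 and *gun1W* overlapped it. It rose by 0.54 in *gun1M* (adjusted p = 0.0172) and 0.57 in *gun1G* (adjusted p = 0.0325), with 0.25 in *gun1W* (adjusted p = 0.228). The call in *gun1M* was lost without *gun1M* replicate 2 (0.49) or Col-0 replicate 1 (0.43), and that in *gun1G* without any 1 *gun1G* or Col-0 library (0.46 to 0.63).

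The other subunits did not pass the test in any mutant group. *CHLI1* averaged 64.3 ± 25.5 scaled TPM in *gun1W*, 62.6 ± 16.6 in *gun1M*, 76.9 ± 18.9 in *gun1G*, and 70.5 ± 29.4 in Col-0, and had the widest standard error of the tested genes of the branch, 0.34. *CHLI2* averaged 7.38, 8.74 and 10.4 in the mutant groups and 8.26 in Col-0, and *CHLD* 14.2, 14.4 and 15.9, and 17.3 in Col-0. *GUN4* averaged 124 ± 29.7 in *gun1W*, 116 ± 48.0 in *gun1M*, 142 ± 36.5 in *gun1G*, and 156 ± 31.7 in Col-0 (SD, n = 3 each). Without *gun1M* replicate 3, which had 171 against 89.0 and 87.0 in the other *gun1M* libraries, *GUN4* was called lower in *gun1M* (−0.80).

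From Mg-protoporphyrin to protochlorophyllide the members are *CHLM* (methyltransferase), *CHL27* (the catalytic subunit of the cyclase) and *DVR* (divinyl reductase). *CHL27* (AT3G56940, chr3:21076505-21078443), per length the most abundant of the members, had 349, 383 and 374 scaled TPM in *gun1W*, 563, 529 and 482 in *gun1M*, 574, 545 and 553 in *gun1G*, against 376, 449 and 446 in Col-0. *gun1W* lay below every library of *gun1M* and *gun1G* and overlapped Col-0. It was lower in *gun1W* than in *gun1G* by a log2 difference of −0.60 (adjusted p = 0.0117), which was not called with nuclear genes summed to 1 total (−0.38) or with AT3G06365 as a covariate (−0.52) and turned to 0.40 in the deposited TPM. *CHLM* and *DVR* had log2 fold changes between −0.17 and 0.43 in the mutant groups against Col-0, with no call.

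Protochlorophyllide oxidoreductase is encoded by *PORA*, which is abundant in dark-grown seedlings and is lost in light, *PORB*, which is active in dark-grown and green seedlings, and *PORC*, which comes up in light and in mature leaves. *PORB* (AT4G27440, chr4:13725546-13727440) had 45.5, 21.1 and 22.1 scaled TPM in *gun1W*, 45.1, 31.8 and 25.5 in *gun1M*, 92.0, 112 and 119 in *gun1G*, against 108, 97.5 and 114 in Col-0. No pale library reached the lowest green one, and *gun1G* and Col-0 overlapped. It fell by 1.90 on the log2 scale in *gun1W* (SE 0.27, adjusted p = 0.000565) and by 1.65 in *gun1M* (adjusted p = 0.00160), and had 0.01 in *gun1G* (adjusted p = 0.983). Against *gun1G* it was −1.91 in *gun1W* (adjusted p = 0.00116) and −1.66 in *gun1M* (adjusted p = 0.00855), and none of these calls was lost by leaving out a library. In the deposited TPM the fold change of *PORB* in *gun1W* was −0.88 (adjusted p = 0.00434).

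*PORA* (AT5G54190, chr5:21990864-21992814) was near the floor of the table in the pale groups. It was listed at 0, 0.0647 and 0 scaled TPM in *gun1W* and at 0.0321, 0 and 0.0566 in *gun1M*, and had 0.463, 0.657 and 1.23 in *gun1G*, against 1.34, 1.61 and 1.12 in Col-0. *PORA* did not pass the filter, and in a fit of 26991 gene models without one it was lower by −1.20 in *gun1W* (adjusted p = 0.000509) and −1.19 in *gun1M* (adjusted p = 0.000730), with −0.42 in *gun1G* (adjusted p = 0.116). In that fit it was also lower in *gun1W* than in *gun1G* (−0.78, adjusted p = 0.00894) and in *gun1M* than in *gun1G* (−0.77, adjusted p = 0.0252). The depth is unknown, so what these low values rest on in reads is unknown too.

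*PORC* (AT1G03630, chr1:907523-909650) had 10.2, 9.31 and 9.85 scaled TPM in *gun1W*, 13.9, 17.9 and 10.3 in *gun1M*, 25.4, 22.1 and 23.1 in *gun1G*, against 5.53, 9.33 and 8.80 in Col-0. *gun1G* was above all other libraries, *gun1M* above all Col-0 libraries, and *gun1W* overlapped Col-0. It rose by 1.49 ± 0.21 in *gun1G* (adjusted p = 0.00212) and by 0.76 in *gun1M* (adjusted p = 0.0188), with 0.31 in *gun1W* (adjusted p = 0.291). The call in *gun1M* was lost without *gun1M* replicate 2 (0.57) or Col-0 replicate 1 (0.55). It was lower in *gun1W* than in *gun1G* by −1.18 (adjusted p = 0.00380), and −0.25 in the deposited TPM, where it was not called.

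Chlorophyll synthase, *CHLG* (AT3G51820, chr3:19215930-19219128), which attaches the phytol tail, was the chlorophyll gene that was called in all 3 mutant groups. It had 15.7, 16.8 and 20.6 scaled TPM in *gun1W*, 20.6, 23.8 and 15.5 in *gun1M*, 21.1, 15.4 and 18.9 in *gun1G*, against 10.4, 12.1 and 9.35 in Col-0, with no overlap between mutant and Col-0. The rise was 0.68 in *gun1W* (adjusted p = 0.0178), 0.84 in *gun1M* (adjusted p = 0.00687) and 0.74 in *gun1G* (adjusted p = 0.0299). The *gun1W* call was lost without *gun1W* replicate 3 (0.58), Col-0 replicate 1 (0.67) or Col-0 replicate 3 (0.60), and the *gun1G* call without any 1 of *gun1G* replicates 1 and 3 and Col-0 replicates 1 and 3 (0.64 to 0.73). *CAO* (AT1G44446, chr1:16848308-16851271), the oxygenase that makes chlorophyll b, had 26.8, 26.4 and 29.7 in *gun1W*, 53.6, 49.7 and 34.5 in *gun1M*, 40.4, 39.0 and 56.3 in *gun1G*, against 23.9, 34.0 and 32.8 in Col-0. Its difference between *gun1W* and *gun1G*, −0.67, was at the edge of the test (adjusted p = 0.0490), was lost under most other settings and was 0.30 in the deposited TPM.

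The 2 regulators act on glutamyl-tRNA reductase, FLU as a repressor when protochlorophyllide builds up and GBP as a protein that holds a share of the enzyme at the membrane and stable. *GBP* (AT3G21200, chr3:7436026-7438011) had 23.0, 17.6 and 22.0 scaled TPM in *gun1W*, 17.0, 17.3 and 13.3 in *gun1M*, 14.5, 13.3 and 16.8 in *gun1G*, against 10.5, 12.4 and 15.8 in Col-0. The *gun1W* libraries lay above Col-0, and the other groups overlapped it. It rose by 0.66 in *gun1W* (adjusted p = 0.0163), a call lost without *gun1W* replicate 3 (0.62) or Col-0 replicate 1 (0.54). *FLU* averaged 14.6 ± 1.95, 15.6 ± 2.78 and 19.1 ± 2.59 in *gun1W*, *gun1M* and *gun1G*, and 17.4 ± 1.62 in Col-0 (SD, n = 3 each), with no call.

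Set side by side by branch, 4 of 12 trunk genes rose in *gun1W*, 5 in *gun1M*, 2 in *gun1G*, and 0 fell. Of all tested gene models, 15.1%, 15.4% and 5.75% rose and 12.5%, 13.6% and 3.62% fell in *gun1W*, *gun1M* and *gun1G*. Of the 12 tested chlorophyll genes, 1 rose and 1 fell in *gun1W*, 3 rose and 1 fell in *gun1M*, and 3 rose and 0 fell in *gun1G*. In the heme branch, with *FC1* under its own identifier, 1 of 4 genes fell in *gun1W* and none was called in *gun1M* or *gun1G*. With the joined model added, *FC1* was called higher in *gun1W*, *gun1M* and *gun1G* (2.35, 2.47 and 1.67), though its reads there cannot be told from those of *MIR860*. The median log2 fold change was 0.49, 0.29 and 0.06 for the trunk and −0.15, 0.19 and 0.35 for the chlorophyll branch in *gun1W*, *gun1M* and *gun1G*, so that the trunk median was highest in *gun1W* and the chlorophyll median in *gun1G*. The chlorophyll median in *gun1W* depended on the scaling, being 0.88 in the deposited TPM (0.82 over all tested gene models there), 0.09 with nuclear genes summed to 1 total (0.19 over all) and −0.22 with quantile normalization (−0.05 over all), while the trunk median was 0.37 to 1.49 and above that of all gene models in each. Directly between *gun1W* and *gun1G*, the trunk genes *HEMA2* and *GSA1* were higher and the chlorophyll genes *PORB*, *PORC*, *CHL27* and *CAO* lower, beside 7.16% of all gene models higher and 5.91% lower. The median was 0.23 for the trunk and −0.31 for the chlorophyll branch, where none of the 12 tested genes had a positive difference, beside 0.01 over all tested gene models. In the deposited TPM the chlorophyll median between *gun1W* and *gun1G* turned to 0.68, below the 0.80 over all gene models, and 10 of 12 differences were positive. Between *gun1M* and *gun1G* 1 member was higher (*HEMA2*) and 1 lower (*PORB*), beside 2.56% and 1.59%. Between *gun1W* and *gun1M* limma called 0 members, beside 0.185% of gene models in either direction, with 3 members at an unadjusted p under 0.05 beside 10.7% of gene models.

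Shares within the pathway do not depend on the factor of a library. The trunk held 30.9, 27.8 and 28.5% of the members' TPM in *gun1W*, 24.1, 22.7 and 23.3% in *gun1M*, 18.9, 19.9 and 19.3% in *gun1G*, against 19.4, 19.2 and 19.4% in Col-0. The white libraries were highest, the marbled ones lay between, and *gun1G* and Col-0 overlapped. The chlorophyll branch held 63.4, 66.9 and 65.2% in *gun1W*, 70.5, 72.3 and 72.4% in *gun1M*, 76.2, 75.5 and 76.0% in *gun1G*, against 74.1, 75.9 and 74.4% in Col-0. The heme branch held 3.11 ± 0.136% in *gun1W*, 2.83 ± 0.294% in *gun1M*, 2.62 ± 0.0887% in *gun1G*, and 3.62 ± 0.685% in Col-0 (SD, n = 3 each), with *FC1* counted without the joined model. Without the 3 *POR* genes the trunk held 29.9 ± 1.96%, 24.2 ± 0.816% and 21.1 ± 0.582% in the mutant groups and 21.1 ± 0.365% in Col-0. Summed, the trunk was at 387 ± 47.5 scaled TPM in *gun1W*, 356 ± 25.6 in *gun1M*, 318 ± 23.7 in *gun1G*, and at 263 ± 29.4 in Col-0, and the chlorophyll branch at 866 ± 51.9, 1092 ± 29.4 and 1245 ± 79.3, and at 1019 ± 121 in Col-0. These shares and sums are descriptions of the chosen members and carry no test.

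**Figure D4:**
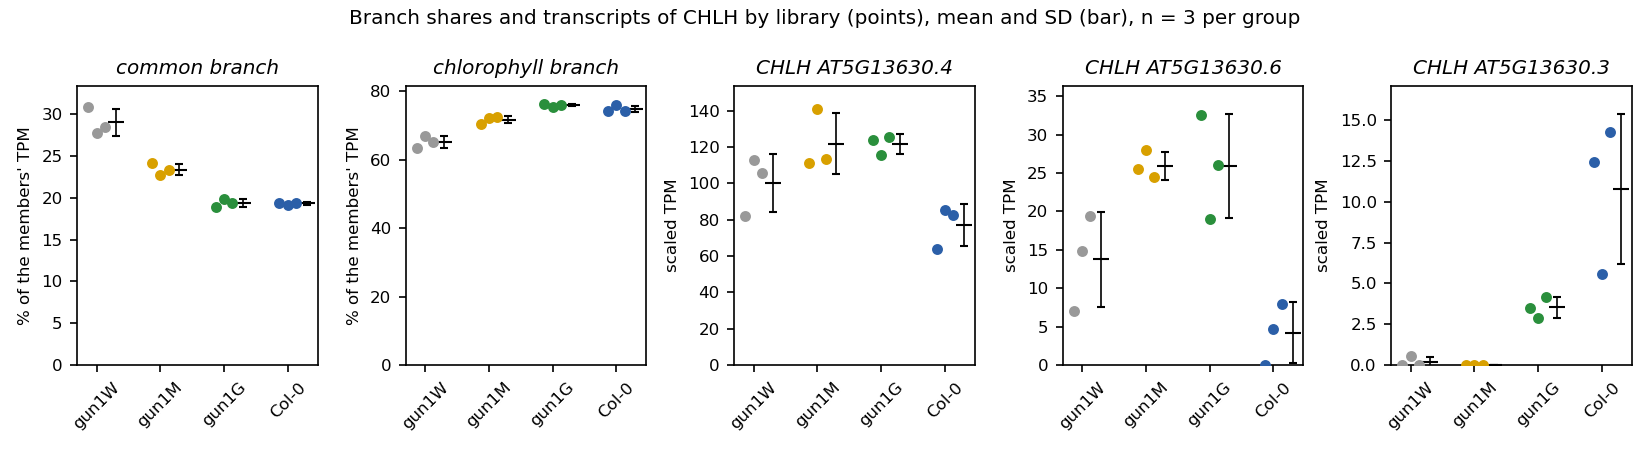
Share of the members' summed TPM held by the common trunk and the chlorophyll branch (percent), and scaled TPM of 3 *CHLH* transcripts, 1 point per library with the group mean ± SD beside the points, for *gun1W*, *gun1M*, *gun1G* and Col-0. The trunk share is 27.8 to 30.9% in *gun1W* and 19.2 to 19.4% in Col-0, and the transcript AT5G13630.3 is at or near 0 in the pale libraries.

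Paralogue pairs were compared by the log2 ratio of their TPM within a library, with an exact permutation test of all 15400 arrangements of the 12 libraries into 4 groups and adjustment over 6 pairs. For a single pair of groups the exact test cannot go below p = 0.1, so the test covers the 4 groups together. The *HEMA2* to *HEMA1* ratio was −2.33 ± 0.11 in *gun1W*, −2.81 ± 0.10 in *gun1M*, −3.78 ± 0.47 in *gun1G*, and −2.90 ± 0.31 in Col-0 (SD, n = 3 each, exact permutation p = 0.000584, adjusted p = 0.00175). *HEMA2* thus held 16.6% of the pair in *gun1W*, 12.5% in *gun1M*, 6.998% in *gun1G*, and 11.96% in Col-0. The 2 pale groups differed from *gun1G* in this share without overlap, and *gun1M* overlapped Col-0.

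The *PORB* to *PORC* ratio was 1.50 ± 0.57 in *gun1W*, 1.28 ± 0.44 in *gun1M*, 2.19 ± 0.29 in *gun1G*, and 3.79 ± 0.46 in Col-0 (SD, n = 3 each, exact permutation p = 0.00266, adjusted p = 0.00533). *PORC* held 26.6 ± 7.12% of the 3 *POR* genes in *gun1W*, 29.4 ± 6.29% in *gun1M*, 18.003 ± 3.09% in *gun1G*, and 6.85 ± 1.91% in Col-0, and every mutant library lay above every Col-0 library. The sum of the 3 genes was 39.4 ± 14.1 scaled TPM in *gun1W*, 48.2 ± 11.7 in *gun1M*, 132 ± 13.2 in *gun1G*, and 116 ± 7.68 in Col-0. The share of *PORC* was thus above Col-0 both in the pale groups, where the sum was low, and in *gun1G*.

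The *PPOX2* to *PPOX1* ratio was −2.46 ± 0.16 in *gun1W*, −2.41 ± 0.02 in *gun1M*, −2.90 ± 0.19 in *gun1G*, and −2.08 ± 0.09 in Col-0 (SD, n = 3 each, exact permutation p = 0.000519, adjusted p = 0.00175). *GSA2* to *GSA1*, *HEME2* to *HEME1* and *CHLI2* to *CHLI1* did not pass (exact permutation, adjusted p = 0.160, 0.902 and 0.902). *HEME2* held 54.6, 53.8 and 54.2% of its pair in *gun1W*, *gun1M* and *gun1G*, and 53.3% in Col-0. With the joined model added, the *FC2* to *FC1* ratio was −0.57 ± 0.43, −0.79 ± 0.65 and 0.04 ± 0.54 in the mutant groups and 1.62 ± 0.44 in Col-0 (SD, n = 3 each, exact permutation p = 0.00474), and *FC1* with the joined model held 59.5%, 62.9% and 49.3% of the pair, and 24.8% in Col-0. Reads that fit both members of a pair are split by estimate, and of the 31-base words of the transcripts of *HEMA2* and *HEMA1* 27 were shared, of *PORA* and *PORB* 18, of *CHLI2* and *CHLI1* 14, of *GSA2* and *GSA1* 13, and of the other pairs 0.

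**Figure D5:**
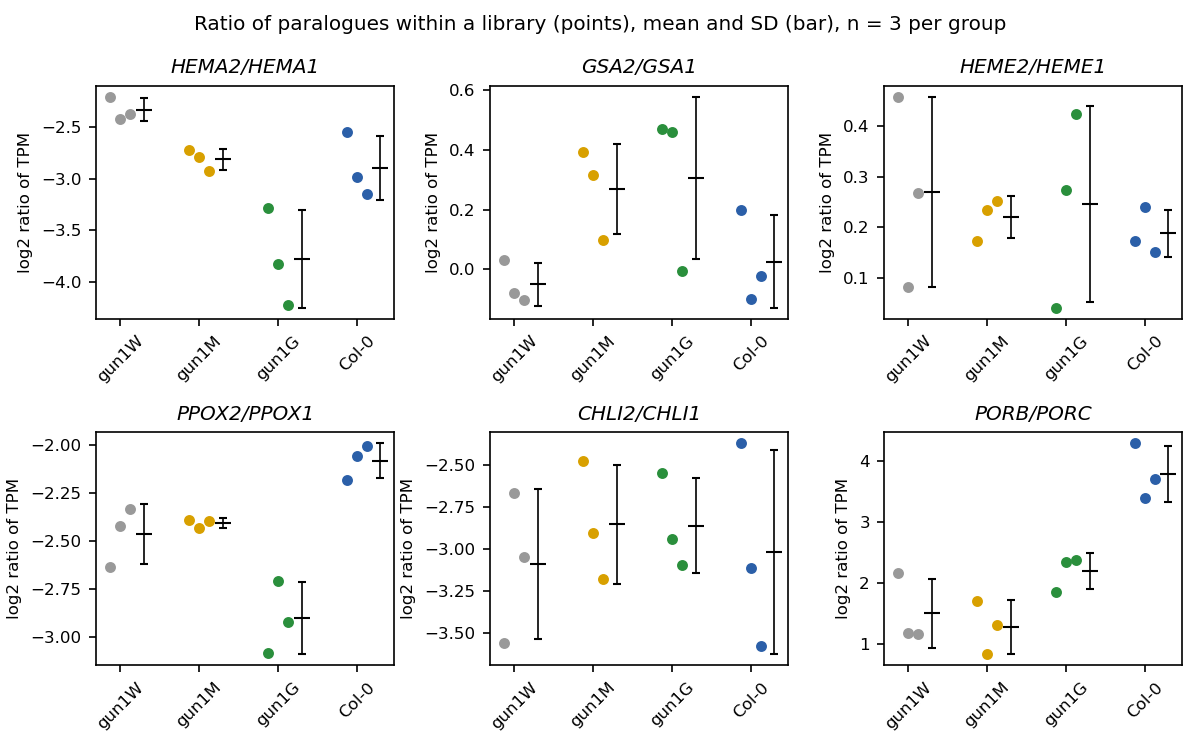
Log2 ratio of the TPM of 2 paralogues within each library for 6 pairs, 1 point per library with the group mean ± SD beside the points, groups from left to right *gun1W*, *gun1M*, *gun1G* and Col-0. The *PORB* to *PORC* ratio is highest in Col-0 (3.79 on average) and the *HEMA2* to *HEMA1* ratio lowest in *gun1G* (−3.78), while the *HEME* pair stays between 0.04 and 0.46 in all libraries.

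Transcript use within a gene was tested with diffSplice in limma over 7697 genes, 24 of them members. *CHLH* was called in *gun1W* (adjusted p = 7.88e-07), *gun1M* (adjusted p = 1.84e-08) and *gun1G* (adjusted p = 0.000484) against Col-0, beside 2.62%, 6.37% and 1.95% of genes. Its transcript AT5G13630.3 had 0, 0.566 and 0 scaled TPM in *gun1W*, 0, 0 and 0 in *gun1M*, 3.52, 2.90 and 4.19 in *gun1G*, against 12.4, 5.56 and 14.3 in Col-0. The transcript AT5G13630.6 had 7.08, 14.8 and 19.4 in *gun1W*, 25.5, 28.0 and 24.5 in *gun1M*, 32.6, 19.1 and 26.0 in *gun1G*, against 0, 4.74 and 7.92 in Col-0. The first was thus lower in all mutant libraries than in Col-0 without overlap, and the second overlapped in 1 *gun1W* library only. The main transcript AT5G13630.4 ranged from 82.3 to 113 in *gun1W*, 111 to 141 in *gun1M*, 115 to 126 in *gun1G*, and from 64.1 to 85.2 in Col-0. Relative to the other transcripts of the gene, AT5G13630.3 changed by −3.94, −4.39 and −1.99 and AT5G13630.6 by 2.06, 2.98 and 2.81 on the log2 scale in *gun1W*, *gun1M* and *gun1G*.

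*CHLH* transcript use also differed between *gun1W* and *gun1G* (adjusted p = 0.0474, lost with the replicate number as a block) and between *gun1M* and *gun1G* (adjusted p = 0.00867), beside 1.82% and 1.51% of genes. *HEMB1* was called in *gun1M* against Col-0 (adjusted p = 0.00146), where AT1G69740.18 had 0, 0 and 7.06 scaled TPM in *gun1M* against 14.4, 10.6 and 9.80 in Col-0, and AT1G69740.2 had 30.5, 29.3 and 28.1 in *gun1M* against 22.6, 16.0 and 8.92 in Col-0. *HEMB1* as a sum did not pass the test in *gun1M* (0.08). *HEME1* was called between *gun1M* and *gun1G* (adjusted p = 0.00268), with AT3G14930.5 at 19.0, 17.2 and 11.04 scaled TPM in *gun1M* against 6.20, 6.61 and 7.85 in *gun1G*. AT3G14930.6 had 0, 0 and 1.21 in *gun1M* against 5.69, 4.30 and 6.20 in *gun1G*. The split between these models also varied within Col-0, where AT3G14930.5 held 61.0, 20.7 and 58.4% of the gene and AT3G14930.6 held 0, 37.7 and 0%. *HEMB1* and *HEME1* were also called between *gun1W* and *gun1M* (adjusted p = 0.0215 and 0.0112), beside 0.520% of genes. How the sequences of these transcript models differ was not analysed here, and the split of reads between similar models is an estimate of the counting tool. With single libraries left out, the number of members called in transcript use ranged from 1 to 2 in *gun1W*, 1 to 4 in *gun1M*, 0 to 3 in *gun1G*. The shares of all genes called in those fits are not given here.

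Genes beside the members on the same pathway were taken from a list of 16, of which 12 passed the filter, and 2 rose and 3 fell in *gun1W*, 2 rose and 1 fell in *gun1M*, and 0 were called by limma in *gun1G*, where 2 had an unadjusted p under 0.05. Of all tested gene models, 15.1% rose and 12.5% fell in *gun1W* and 15.4% rose and 13.6% fell in *gun1M*. *HO2*, on this list and named after its values were seen, had 3.95, 2.29 and 1.90 scaled TPM in *gun1W* against 5.19, 5.57 and 11.2 in Col-0, without overlap. It averaged 3.59 in *gun1M* and 6.59 in *gun1G*. *UPM1*, the methyltransferase that leads from the trunk to siroheme, had 65.8, 133 and 171 scaled TPM in *gun1W*, 58.8, 121 and 147 in *gun1M*, 32.6, 23.4 and 25.6 in *gun1G*, against 31.6, 30.2 and 29.5 in Col-0. It separated pale from green libraries, with log2 fold changes of 1.88, 1.70 and −0.17 (adjusted p = 0.00286 in *gun1W*). *LCAA*, a protein that the cyclase with CHL27 needs, rose by 0.97 in *gun1W* and 0.67 in *gun1M*, while *CHLP*, the geranylgeranyl reductase that supplies phytol, fell by 0.76 and 0.54, a direction that turned in the deposited TPM of *gun1W* (0.29). The calls of *CHLP* were lost without *gun1W* replicate 3 (−0.60) or Col-0 replicate 3 (−0.65) in *gun1W* and under most settings in *gun1M*, and *LIL3:2*, called lower in *gun1W* (−0.41), lost its call without any 1 of several libraries and was at 0.60 in the deposited TPM.

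Phytochromes carry the bilin made by HO1 and HY2. Of 5 genes, *PHYA* fell in all mutant groups, with 21.8, 16.2 and 14.5 scaled TPM in *gun1W*, 30.9, 19.5 and 17.1 in *gun1M*, 53.4, 55.2 and 46.1 in *gun1G*, against 99.9, 84.0 and 90.4 in Col-0. The groups *gun1W* and *gun1M* overlapped, and *gun1G* lay between them and Col-0. The log2 fold changes were −2.34 (adjusted p = 2.76e-05), −2.02 and −0.81, the last lost without any 1 *gun1G* or Col-0 library. *PHYE*, named after its values were seen, rose by 0.52 in *gun1M* (adjusted p = 0.0174). *PHYB* averaged 16.5 ± 1.58, 17.5 ± 2.36 and 15.7 ± 2.59 in the mutant groups and 14.8 ± 0.152 in Col-0 (SD, n = 3 each).

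Of 12 transcription factors known to act on genes of the pathway, 3 rose and 3 fell in *gun1W*, 3 rose and 2 fell in *gun1M*, and 2 rose and 0 fell in *gun1G*, beside 15.1 and 12.5%, 15.4 and 13.6%, and 5.75 and 3.62% of all tested gene models. *HYH*, a relative of HY5 that promotes responses to light, had 15.4, 19.5 and 20.9 scaled TPM in *gun1W*, 18.4, 13.1 and 27.6 in *gun1M*, 8.59, 6.18 and 8.31 in *gun1G*, against 0.591, 3.33 and 2.49 in Col-0. Its log2 fold changes were 2.75, 2.78 and 1.58, the last lost without *gun1G* replicate 1 (1.50), *gun1G* replicate 3 (1.52) or Col-0 replicate 1 (1.15). *GNL*, a GATA factor that promotes greening, rose by 1.50 in *gun1W* and 1.38 in *gun1M*. *PIF1*, a repressor of chlorophyll synthesis in the dark, fell by 1.53 and 1.51, and *PIF3*, another factor of this family, by 0.83 and 0.50. In the deposited TPM *PIF3* was at 0.11 in *gun1W*, where the direction turned. The *PIF3* call in *gun1M* was lost without *gun1M* replicate 2 or 3 or Col-0 replicate 1 or 3. *GLK1*, named after its values were seen, had 61.7, 48.8 and 72.4 scaled TPM in *gun1G* against 19.8, 27.8 and 27.5 in Col-0, without overlap. *GLK2* averaged 38.1 in *gun1G* and 45.6 in Col-0. *CCA1*, also named afterwards, had 5.36, 5.72 and 8.91 in *gun1M* against 2.60, 2.58 and 2.87 in Col-0.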

How the data were processed

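Directional total-RNA libraries depleted of rRNA were made from 3 samples each of *gun1W*, *gun1M*, *gun1G* and Col-0 seedlings, with cotyledon as the labelled tissue. The authors deposited TPM per transcript from Salmon with the transcriptome AtRTD3-QUASI, and the submitters' notes also name Trimmomatic, FastQC, STAR and TAIR10, with no versions. TPM in a library sums to 1000000, so depth and counting error are unknown, and the number of libraries limits the precision. Deposited TPM was summed per gene model, models that join genes were kept apart, and each library was scaled by the median log2 ratio over nuclear genes. Group differences in log2(scaled TPM + 1) were estimated by limma 3.58.1 under R 4.3.3, in 1 linear model of all 12 libraries with trended empirical Bayes variances. Benjamini-Hochberg adjustment ran over 18373 gene models with 3 or more libraries at a TPM of 1 or higher, plastid ones left out. The study called nuclear genes with a limma-based tool. Exact permutation tests of paralogue ratios were planned for 9 pairs, but zeros left 6 with a ratio in every library. Promoter letters and coordinates come from the RefSeq TAIR10.1 genome. Other steps used Python 3.11.15 with pandas 2.3.3, numpy 2.4.6 and, for figures, matplotlib 3.10.9. The fits were tested on simulated data.

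Members, lists and motifs were chosen with earlier results of these data known. All members are described, with up to 4 genes of each list by the smallest adjusted p in *gun1W*, *GUN1* and AT3G06365. *RBCS1A*, *RBCS1B*, *CAB1*, *CAB3*, *CASP1*, *SHR*, *SMB*, *PHYE*, *GLK1*, *GLK2*, *CCA1* and *HO2* were named after their values were seen. Same-numbered libraries of different groups had correlations of −0.286 to 0.311 in their deviations, not all over 0.1, so the numbers were not taken as pairs. Alternatives were other scalings, added values, filters, the replicate block, AT3G06365 as a covariate, fits of 2 groups and leaving out each library.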

Additional observations from a re-analysis of the deposited data

Results flagged for a closer look

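Each of these differences between mutant groups was tested directly in the fit of 12 libraries and passed the threshold. The effects against the shared Col-0 libraries thus differed between the mutant groups named. *HEMA2* was higher by 1.35 on the log2 scale in *gun1W* than in *gun1G*, and by 1.04 in *gun1M* than in *gun1G*. The second *HEMA2* call was lost without *gun1G* replicate 2 or 3 and in the fit of 6 libraries. *PORB* was lower by −1.91 in *gun1W* and by −1.66 in *gun1M* than in *gun1G*. *PORC* was lower by −1.18 in *gun1W* than in *gun1G*, but at −0.25 and not called in the deposited TPM. Groups of 3 libraries are too small for a test of single outlying libraries.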

How the results depend on the processing

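Of 33 member calls over the comparisons, 19 held in every setting and 21 held when any 1 library was left out. Scaling moved the counts most. In the deposited TPM, 25 members were higher and 1 lower in *gun1W* than in Col-0, 25 higher and 1 lower than in *gun1G*, 22 higher than in *gun1M*, and 3 higher in *gun1G* than in Col-0, where the construction leaves in the shift of the median gene, and 3 members were called in transcript use between *gun1W* and *gun1G*. Over all tested gene models, the median difference of *gun1W* there was 0.82 against Col-0, 0.80 against *gun1G* and 0.64 against *gun1M*. With nuclear genes summed to 1 total, 14 were higher and 1 lower in *gun1W* than in Col-0, and 6 higher and 2 lower than in *gun1G*. The medians over all tested gene models were 0.19 and 0.18 in these comparisons. Shares of all gene models called under these scalings are not given here, so the counts do not show whether the members stand out. Without a filter, which admits *PORA*, 2 were lower in *gun1M* than in Col-0 and 2 lower than in *gun1G*. Only 1 member was higher in *gun1W* than in *gun1G* with quantile normalization, without a filter, with AT3G06365 as a covariate, with the replicate block and in the fit of 6 libraries, and 0 in *gun1M* than in *gun1G* in the last. A transcript filter of 0.5 TPM gave 2 members in *gun1G*. In the deposited TPM the sign turned for *HO1* (0.31), *CHLP* (0.29), *LIL3:2* (0.60), *NOL* (0.31) and *PIF3* (0.11) in *gun1W* against Col-0 and for *CHL27* (0.40), *CAO* (0.30), *LIL3:2* (0.47) and *PIF3* (0.33) in *gun1W* against *gun1G*.

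Leaving out 1 library at a time gave 1 to 3 lower members in *gun1W*, 1 to 2 lower in *gun1M* and 1 to 7 higher in *gun1G* against Col-0, 1 to 2 higher in *gun1W* than in *gun1G* and 0 to 1 higher in *gun1M* than in *gun1G*. Members called in transcript use were then 1 to 2, 1 to 4 and 0 to 3 against Col-0, 0 to 1 between *gun1W* and *gun1G* and 1 to 3 between *gun1M* and *gun1G*. The shares of all gene models called in these fits are not given here either, so the ranges do not show whether the members stand out. Taking the replicate number as a block lost 3 calls, *CHLG* in *gun1G* (adjusted p = 0.0507) and *GSA1* and *CAO* between *gun1W* and *gun1G* (adjusted p = 0.0530 and 0.0785), and left 0 members called in transcript use between *gun1W* and *gun1G*. The samples share only the number. Of the ratios, 4 pairs passed with the joined model added, with 1 added to the TPM (*PORA* to *PORC*, adjusted p = 0.0123) and without *gun1G* replicate 3 (*GSA2* to *GSA1*, adjusted p = 0.0216). Except where a construction is named, the cause was not tested.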

Other observations

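Chlorophyll breakdown was looked at through 11 genes, of which 10 passed the filter. Against Col-0, 3 rose and 1 fell in *gun1W*, 3 rose and 0 fell in *gun1M*, and 4 rose and 0 fell in *gun1G*. Of all tested gene models, *gun1W* had 15.1% higher and 12.5% lower, *gun1M* had 15.4% higher and 13.6% lower, *gun1G* had 5.75% higher and 3.62% lower. *SGRL*, a relative of the Mg-dechelatase that starts the removal of chlorophyll, had 36.0, 37.9 and 42.1 scaled TPM in *gun1W*, 45.6, 38.5 and 35.2 in *gun1M*, 28.8, 24.7 and 27.4 in *gun1G*, against 9.95, 13.1 and 16.5 in Col-0. It rose by 1.51, 1.54 and 1.00 on the log2 scale, and all mutant libraries lay above Col-0. *CLH2*, a chlorophyllase, had 6.78, 7.14 and 8.51 in *gun1W*, 5.84, 7.74 and 6.54 in *gun1M*, 3.72, 2.78 and 3.18 in *gun1G*, against 1.60, 1.43 and 1.74 in Col-0. Its log2 fold changes were 1.71 (adjusted p = 2.18e-05 in the limma fit), 1.57 and 0.70, and it was higher in *gun1W* than in *gun1G* by 1.00. *CLH1*, the other chlorophyllase gene, rose by 0.95 in *gun1M* and 1.059 in *gun1G*, with 0.70 in *gun1W* at the edge of the test (adjusted p = 0.0444). The calls of *CLH1* in *gun1W* and *gun1G*, and of *CLH2* in *gun1G*, were lost without any 1 of several libraries. *NOL*, a chlorophyll b reductase, was the lower call in *gun1W* (−0.57), lost without *gun1W* replicate 1 or 3 or Col-0 replicate 1 or 3 and at 0.31 in the deposited TPM.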
